A study of Mus musculus with 2 samples.

Results

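The Ly6 surface antigen family was examined here through 6 of its genes, Ly6a, Ly6c1, Ly6c2, Ly6d, Ly6e and Ly6g, out of 20299 genes in the matrix. They were taken by name, and for each the unique molecular identifiers (UMIs, 1 for each captured transcript) were summed by cluster and library. Ly6a was on the list because its level in effector memory-like (EM-like) CD8+ T cells was much higher in the Vsir-/- library than in the WT library, so that difference is given as a description. All 6 members had UMIs in both libraries.

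Ly6 proteins are small, cysteine-rich surface proteins that adopt the three-finger fold and are held in the outer leaflet of the membrane by a glycosylphosphatidylinositol (GPI) anchor. In mice the family serves mainly as a set of lineage markers. Ly6a encodes Sca-1, the stem cell antigen that is also found on lymphocytes and endothelium and responds to interferons. Ly6c1 and Ly6c2 encode the Ly6C antigens of monocytes, memory CD8+ T cells and endothelium, Ly6d marks B lineage cells and plasmacytoid dendritic cells (pDCs), Ly6e is widely expressed, and Ly6g is the neutrophil antigen.

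The cells came from kidneys of C57BL/6 mice aged 8 weeks, 1 library from WT mice and 1 from Vsir-/- mice, which lack the gene for the checkpoint molecule VISTA in every cell. Both genotypes carried nephrotoxic nephritis (NTN). For this model, 200 μg of sheep immunoglobulin G in adjuvant was followed 4 days later by sheep serum against the glomerulus, at 2 μl per g of body weight in the labels. The study's methods state another serum dose and give all mice as male, and the number of mice behind each library could not be learned from the sources used here. The label of the WT library describes sorted CD45+ cells and that of the Vsir-/- library describes all kidney cells, whereas the methods describe CD45+ sorting without a difference between genotypes. Genotype, sort and library therefore cannot be told apart, and since each genotype has 1 library, no difference below has a replicate check. Intervals are at the 95% level, cover counting error only and describe these 2 libraries. No test was run between them.

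The WT library held 5470 cells and 32799550 UMIs (median 4726.5 per cell) and the Vsir-/- library 1844 cells and 18601189 UMIs (median 6673 per cell). The targeted gene, Vsir, was at 130 UMIs per 1000000 UMIs of the same cells (CPM, counts per that number) in WT (interval 127 to 134) and at 0.430 in Vsir-/- (0.186 to 0.847). A UMI of Ptprc, which encodes CD45, was present in 94.2% of cells in the WT library and 73.6% in the Vsir-/- library. The 12 endothelial marker genes together were at 90.0 CPM in WT and 2710 CPM in Vsir-/-. Over clusters the summed level ranged from 24.6 to 159 CPM in WT and from 82.5 to 6042 in Vsir-/- (basophils left out). The 20 kidney tubule genes ranged from 15.3 to 378 CPM over WT clusters and from 1327 to 15392 over Vsir-/- clusters. In all, 5 cell barcodes were shared by the libraries.

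The authors sorted the cells into 16 named clusters, in which R1 and R2 are their names for resident and infiltrating macrophages. NKT cells had no Vsir-/- cell and basophils had 2, so ratios were taken in the other 14 clusters. Cluster names and Vsir-/- contents did not always match. In non-EM-like CD4+ T cells, 233 of the 349 Vsir-/- cells held no T cell transcript of the list used and only 30.4% had a Ptprc UMI. Among proliferating cells, 123 of 189 Vsir-/- cells held no such transcript and 37.0% had a Ptprc UMI. In the B cluster a Cd79a or Cd79b UMI, from the chains of the B cell receptor complex, was present in 100% of WT cells and in 51.1% of Vsir-/- cells.

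The members lie together on chromosome 15 of the GRCm38 build, in the order Ly6d (chr15:74762056-74763620, minus strand), Ly6e (chr15:74955051-74959905, plus), Ly6a (chr15:74994877-74998031, minus), Ly6c1 (chr15:75044018-75048830, minus), Ly6c2 (chr15:75108158-75111970, minus) and Ly6g (chr15:75155240-75159126, plus). Several are near copies, which matters for 3′ counting because a read that matches 2 genes equally well cannot be given to either. The first 300 coding bases of Ly6c1 and Ly6c2 from GENCODE vM21 are shown because they are the closest pair, with Ly6a below them as the member on which most of the results turn. Capitals mark the bases at which Ly6c1 and Ly6c2 differ.
Ly6c1: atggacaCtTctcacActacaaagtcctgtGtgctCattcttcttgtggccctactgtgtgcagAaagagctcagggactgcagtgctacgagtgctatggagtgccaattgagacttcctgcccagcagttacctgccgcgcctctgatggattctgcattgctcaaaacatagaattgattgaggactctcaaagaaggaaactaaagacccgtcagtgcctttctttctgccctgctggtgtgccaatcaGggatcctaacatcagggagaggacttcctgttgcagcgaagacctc
Ly6c2: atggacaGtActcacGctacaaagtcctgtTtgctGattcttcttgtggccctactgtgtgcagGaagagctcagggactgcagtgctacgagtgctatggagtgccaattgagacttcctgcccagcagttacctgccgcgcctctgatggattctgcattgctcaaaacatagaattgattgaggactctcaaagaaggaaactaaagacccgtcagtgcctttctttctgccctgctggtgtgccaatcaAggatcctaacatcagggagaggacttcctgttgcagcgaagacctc
Ly6a: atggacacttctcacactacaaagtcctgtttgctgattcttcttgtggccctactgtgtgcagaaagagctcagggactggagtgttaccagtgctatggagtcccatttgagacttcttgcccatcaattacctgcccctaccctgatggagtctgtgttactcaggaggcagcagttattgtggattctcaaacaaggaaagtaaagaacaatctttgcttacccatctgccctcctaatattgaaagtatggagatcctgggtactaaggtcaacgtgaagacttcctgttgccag

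Of the 393 aligned coding bases of Ly6c1 and Ly6c2, 9 differed (97.7% identical), 7 of them in the stretch shown and most of those near its start, and 20 bases differed over the whole transcript. Of all 91-base stretches of the Ly6c1 transcript, 17.5% occurred unchanged in Ly6c2, but in the last 500 bases, where 3′ reads fall, the share was 8.29%. Counts of this pair are therefore uncertain to that extent. Ly6a was 83.7% identical to Ly6c1, 83.5% to Ly6c2 and 83.1% to Ly6g over the coding part, and it shared no 91-base stretch with any other member. Ly6d and Ly6e stood further away, with coding identities between 49.5% and 57.9% to the rest. The M2-like R2 cluster of the WT library shows how far the counts of the close pair were kept apart, with 13054 UMIs of Ly6c2 and 17 of Ly6c1.

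The regions before the starts of this pair are shown next, since the 2 genes were detected in different clusters. Both are RefSeq windows of GRCm38.p6 that run from 250 bases before to 50 after an annotated start, and capitals mark the letters GAGGAAGT on the printed strand, which hold the core that ETS-family factors bind.
Ly6c1 (chr15:75048788-75049087, minus strand): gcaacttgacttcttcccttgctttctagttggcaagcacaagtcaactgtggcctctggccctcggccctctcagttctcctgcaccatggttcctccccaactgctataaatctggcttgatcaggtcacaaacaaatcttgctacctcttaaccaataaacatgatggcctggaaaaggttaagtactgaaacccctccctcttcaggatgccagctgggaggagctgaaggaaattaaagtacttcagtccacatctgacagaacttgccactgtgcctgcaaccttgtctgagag
Ly6c2 (chr15:75111922-75112221, minus strand): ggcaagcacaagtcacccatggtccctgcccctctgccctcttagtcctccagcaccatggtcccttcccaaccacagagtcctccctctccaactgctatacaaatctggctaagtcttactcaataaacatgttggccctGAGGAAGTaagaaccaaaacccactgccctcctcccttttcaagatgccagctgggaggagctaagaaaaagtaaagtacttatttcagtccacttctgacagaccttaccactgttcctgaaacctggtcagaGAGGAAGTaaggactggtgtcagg

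The Ly6c2 window held GAGGAAGT at 2 places and the Ly6c1 window at none, although the window of a second annotated start of Ly6c1 has 1 match. That match begins in the last bases of the printed Ly6c1 window, which ends before it is complete. The difference between the 2 printed windows thus depends in part on where they end. On either strand these letters occur in 1052 of 32851 RefSeq windows of the same length. The letters were picked after the sequences were seen, and a match is a description of the sequence and not of a bound factor. The letters TTCNNNGAA of the interferon-linked GAS motif, which 8.30% of windows hold, were absent from the windows of Ly6c1, Ly6c2 and Ly6g, the 3 members that could be looked up.

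The members differed in the clusters that led them, except that M2-like R2 macrophages led both Ly6c2 and Ly6e. In the WT library Ly6a was highest in γδ T cells and type 2 innate lymphoid cells (ILC2), Ly6c1 in non-EM-like CD4+ T cells, Ly6c2 in M2-like R2 macrophages, Ly6d in B cells, Ly6e in M2-like R2 macrophages, with other R2 macrophages and B cells next, and Ly6g in neutrophils. Over the whole library Ly6a was at 309 CPM in WT and 720 in Vsir-/-, Ly6c1 at 21.0 and 241, Ly6c2 at 806 and 318, Ly6d at 196 and 37.6, Ly6e at 1219 and 1218, and Ly6g at 27.2 and 20.1. These sums mix the cell types of the libraries, so the values within clusters follow. Levels are compared within a gene only.

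**Figure D1:**
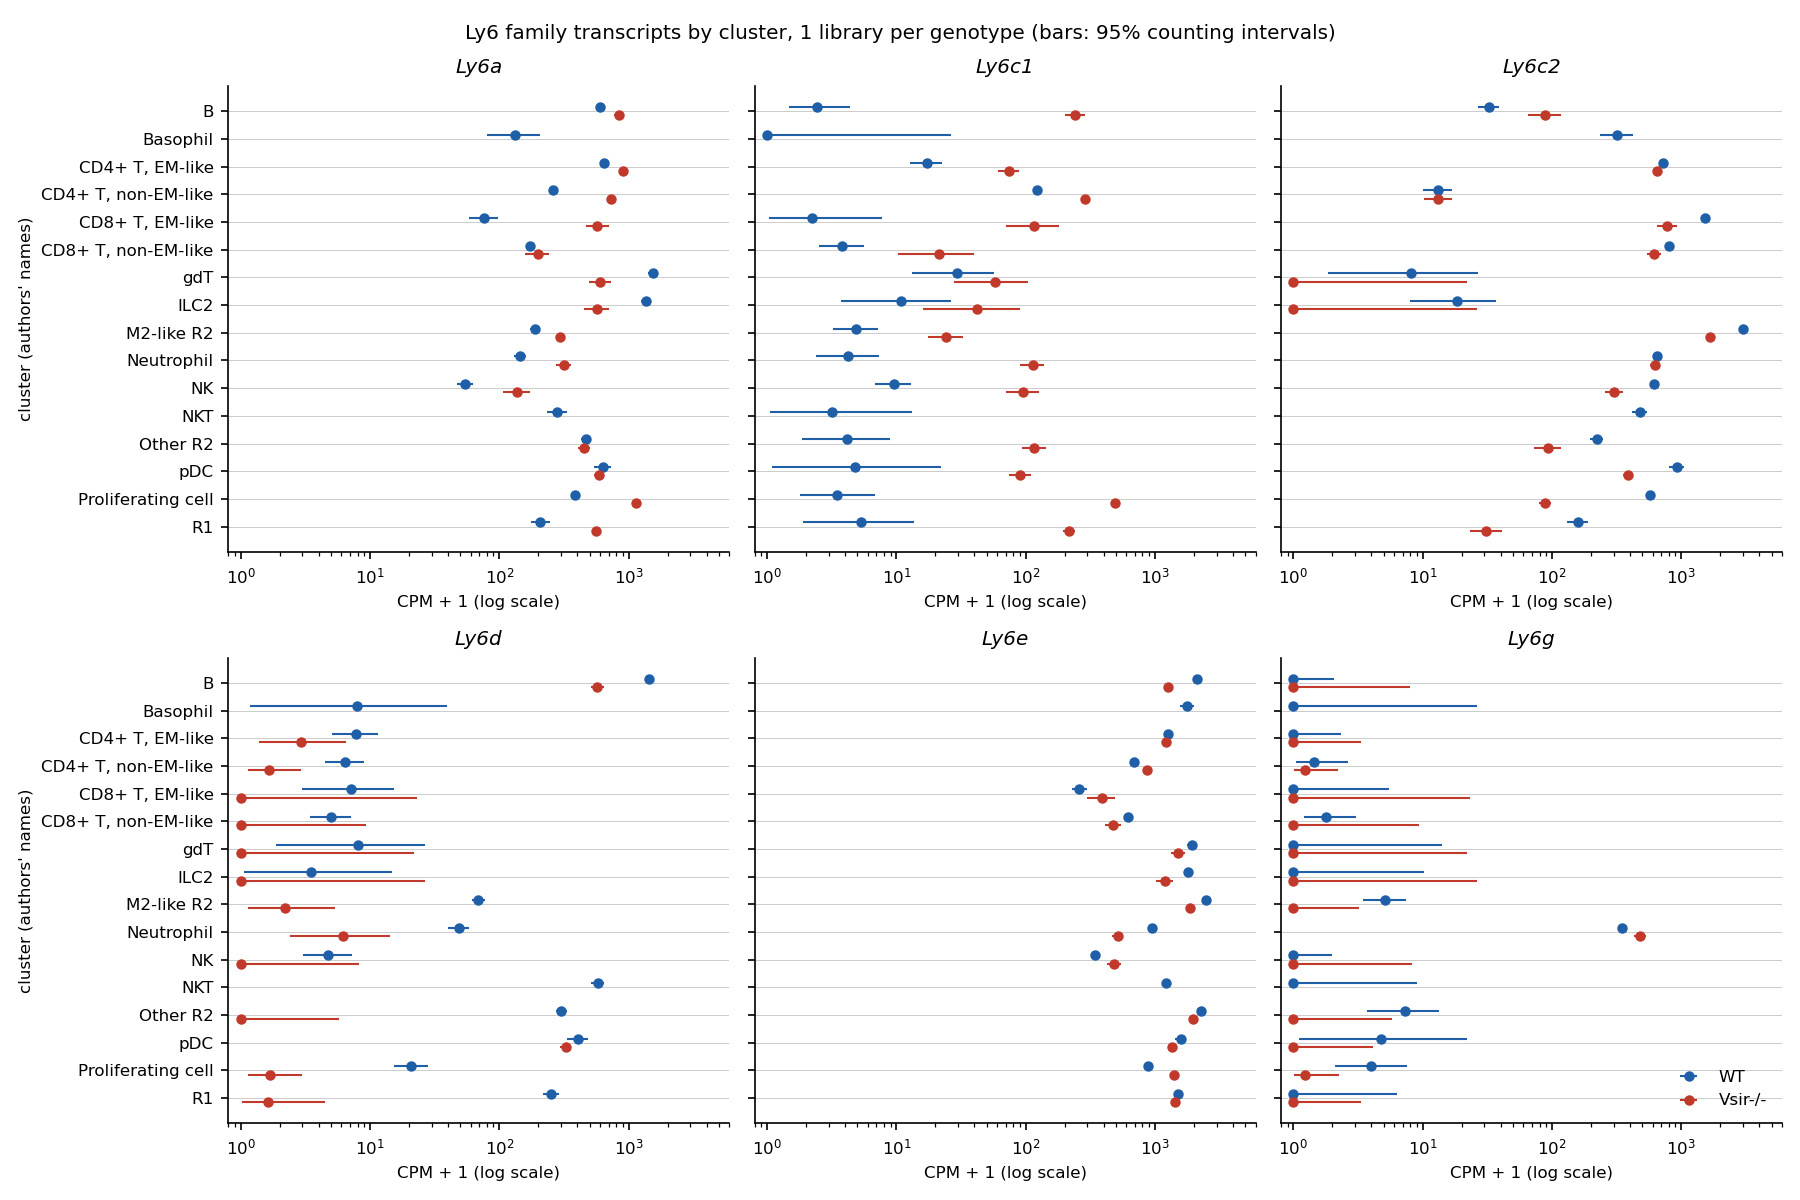
Level of each of the 6 members (x axis, CPM + 1 of the pooled UMIs, log scale) in each cluster (y axis) of the WT (blue) and Vsir-/- (red) libraries, with bars for the 95% Poisson interval of the count. Ly6g stands out only in neutrophils (344 and 479 CPM). Ly6d is highest in B cells in both libraries, followed by pDCs in Vsir-/-. In WT, NKT cells (574 CPM), pDCs (404), other R2 (301) and R1 macrophages (250) follow B cells. The red points of Ly6c1 lie to the right of the blue ones in all clusters with both.

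Ly6a, which encodes Sca-1, had its widest WT range within the lymphocytes. It was at 1543 CPM in γδ T cells (1401 to 1695) and 1358 in ILC2 (1247 to 1477), whose intervals overlap. EM-like CD4+ T cells (640), pDCs (627) and B cells (595) came next, each with an interval that overlaps its neighbour. The lowest levels were in EM-like CD8+ T cells (75.3, interval 57.7 to 96.5) and NK cells (53.5, 46.3 to 61.4). A Ly6a UMI was found in 93.5% of WT γδ T cells and 13.1% of WT NK cells, with medians of 5377.5 and 5491.5 UMIs per cell.

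In the Vsir-/- library the order was another. Proliferating cells led at 1133 CPM, followed by EM-like CD4+ T cells (908), B cells (843) and non-EM-like CD4+ T cells (733), while γδ T cells were at 604, pDCs at 585 and ILC2 at 564. NK cells were again lowest, at 136. EM-like CD8+ T cells held 62 UMIs in 197 WT cells and 95 UMIs in 28 Vsir-/- cells. Their level went from 75.3 CPM to 572 (463 to 699), a log2 ratio of Vsir-/- over WT of 2.93 (interval 2.45 to 3.41). This is the value by which Ly6a was chosen. Among the 5521 genes with at least 20 UMIs in this cluster, 50 had a higher ratio. That place follows from the choice, so nothing is read from it. The share of cells with a Ly6a UMI was 13.7% and 53.6%, or 7.22% and 28.6% after each cell was thinned to 1000 UMIs. The median depth was 3886 UMIs per cell in WT and 5236 in Vsir-/-. In NK cells, the cluster with the lowest Ly6a level, the share was 13.1% in WT (10.5% to 16.1%) and 43.3% in Vsir-/- (31.2% to 56.0%), at medians of 5491.5 and 5472 UMIs per cell. These intervals overlap those of the EM-like CD8+ T cells (9.23% to 19.3% and 33.9% to 72.5%), so in neither library did the share of cells differ from that in NK cells beyond counting error. In WT the levels were 75.3 and 53.5 CPM, with intervals that overlapped in part (57.7 to 96.5 and 46.3 to 61.4), which does not show that they were equal. In Vsir-/- the intervals of the levels lay apart (463 to 699 and 106 to 172).

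Ratios of Ly6a in the other clusters went in both directions. Counting intervals lay above 0 in 8 of these 13 clusters, below 0 in 2 and across 0 in 3. Among all genes with at least 20 UMIs, intervals above and below 0 made up 6.47% and 7.01% in EM-like CD8+ T cells, 8.49% and 8.38% in γδ T cells, 11.9% and 8.42% in the non-EM-like CD8+ cluster, and 13.2% and 8.81% in NK cells. They made up 11.0% and 12.3% in pDCs, 12.4% and 12.9% in ILC2, 13.6% and 15.6% in other R2 macrophages, 13.9% and 17.3% in neutrophils and 16.6% and 16.7% in M2-like R2 macrophages. The clusters with the most such genes had 17.2% and 14.4% in the EM-like CD4+ cluster, 18.9% and 16.2% in R1 macrophages, 20.1% and 18.9% in B cells, 50.1% and 18.3% in proliferating cells and 61.6% and 17.3% in non-EM-like CD4+ T cells. Ly6a was higher in the Vsir-/- library in proliferating cells (385 and 1133 CPM, log2 ratio 1.56), non-EM-like CD4+ T cells (259 and 733, 1.50), R1 macrophages (207 and 556, 1.42), NK cells (53.5 and 136, 1.35) and neutrophils (143 and 313, 1.13). Smaller positive ratios were seen in M2-like R2 macrophages (186 and 296 CPM, log2 ratio 0.67), EM-like CD4+ T cells (640 and 908, 0.51) and B cells (595 and 843, 0.50). Non-EM-like CD8+ T cells were at 172 and 197 CPM, with a log2 ratio of 0.20 whose interval runs from −0.14 to 0.52. In R1 macrophages 127 of the 144 WT Ly6a UMIs lay in cells with a Cd79a or Cd79b UMI. Among R1 cells without such a UMI Ly6a was at 58.5 and 629 CPM, a log2 ratio of 3.43 (2.74 to 4.22). The value of EM-like CD8+ T cells without such a UMI was 3.11 (2.61 to 3.62).

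The 2 clusters with the most Ly6a in WT were the ones that were lower in the Vsir-/- library. γδ T cells were at 1543 and 604 CPM, a log2 ratio of −1.35 (−1.67 to −1.05), from 46 and 28 cells. ILC2 were at 1358 and 564 CPM, a log2 ratio of −1.27 (−1.62 to −0.93), from 79 and 19 cells. After thinning, 63.0% of WT and 21.4% of Vsir-/- γδ T cells had a Ly6a UMI, and 66.7% and 42.1% of ILC2. T cell marker genes were at 4518 and 4237 CPM in γδ T cells. Transcripts of the 20 kidney tubule genes went from 132 to 2127 CPM in γδ T cells and from 19.8 to 8168 in ILC2, and were found in 100% of the Vsir-/- cells of either cluster, and their part in the result was not tested.

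**Figure D2:**
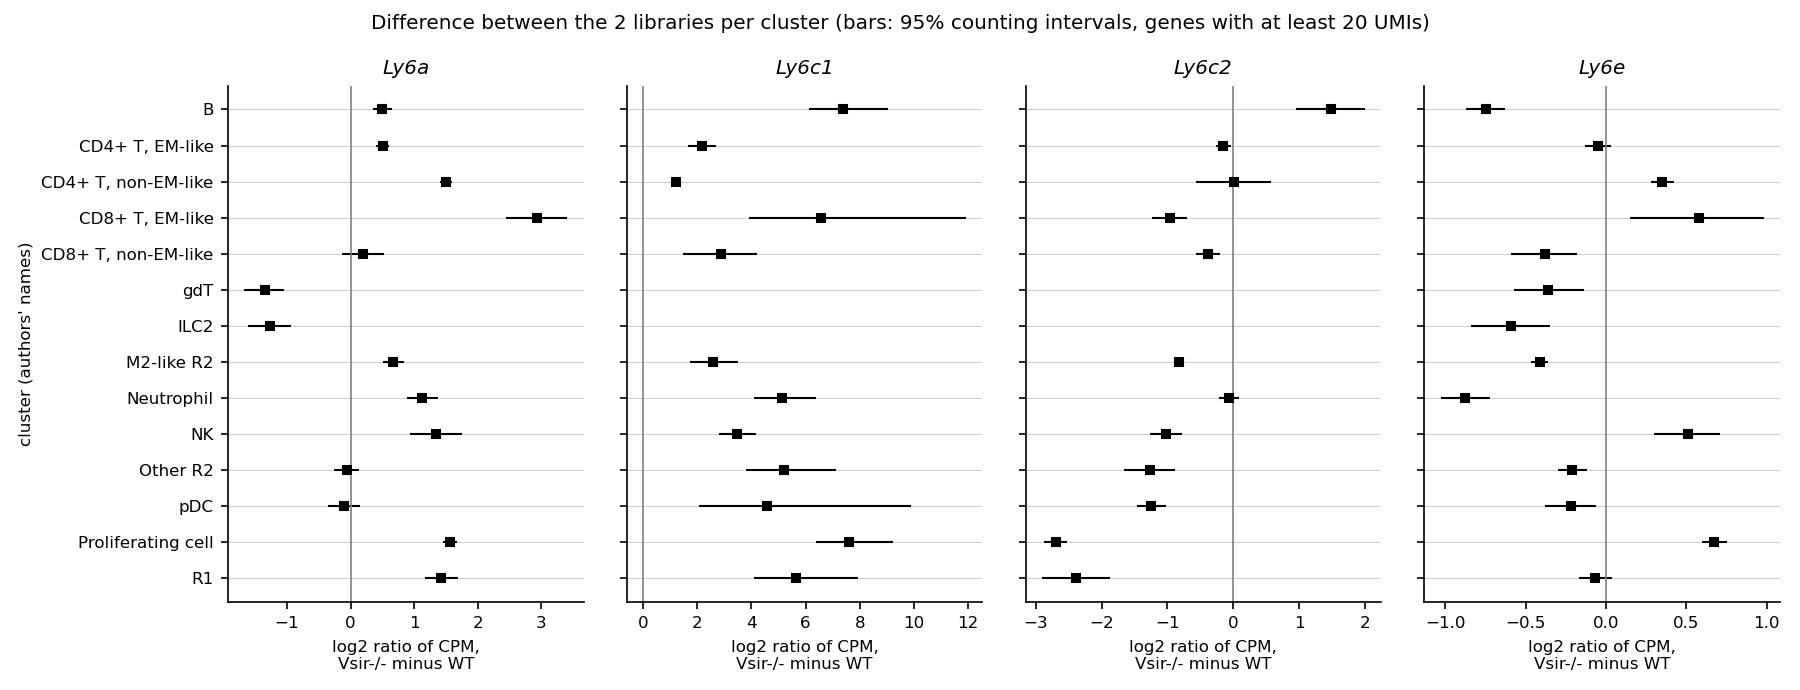
Log2 ratio of Vsir-/- over WT CPM (x axis) of the members in the clusters (y axis), for Ly6a, Ly6c1, Ly6c2 and Ly6e where the gene had at least 20 UMIs, with bars for the 95% counting interval and a scale of its own in each panel. Ly6a runs from −1.35 in γδ T cells to 2.93 in EM-like CD8+ T cells, Ly6c1 lies above 0 in every cluster drawn, and Ly6c2 lies below 0 in most. Several clusters of Ly6c1 reached 20 UMIs only through the Vsir-/- library.

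In EM-like CD8+ T cells, 4 members had at least 20 UMIs. Ly6a and Ly6c1 were past a log2 ratio of 1, where 6.03% of 5521 genes were, and none was past −1, where 9.98% were. Since Ly6a was chosen on this contrast, nothing is read from that count. Ly6c1, the Ly6C gene with few UMIs in WT immune cells, had 1 UMI in 197 WT cells and 19 in 28 Vsir-/- cells. Ly6e was at 259 CPM in WT (225 to 296) and 385 in Vsir-/- (297 to 492), a log2 ratio of 0.58 (0.15 to 0.98), and was found in 52.3% and 82.1% of cells. Ly6c2, the Ly6C gene of monocytes and memory CD8+ T cells, was at 1515 CPM (1432 to 1601) and 777 (649 to 923), a log2 ratio of −0.96 (−1.24 to −0.70). A Ly6c2 UMI was found in 81.2% and 60.7% of cells, or 60.3% and 46.4% after thinning. Ly6d had 5 and 0 UMIs and Ly6g had none in either library.

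The Ly6a UMIs of Vsir-/- EM-like CD8+ T cells were unevenly spread. Of the 28 cells, 13 had none, 5 had 1 or 2, 5 had 3 to 5, 3 had 6 to 10 and 2 had more than 10. The top 3 cells held 55 of the 95 UMIs (57.9%), against 35.5% of the UMIs in the top 3 of 197 WT cells, of which 170 had none. The top cell held 28 Ly6a UMIs (29.5%) and 17 of the 19 Ly6c1 UMIs of the cluster. It also held 78 UMIs of the endothelial genes, among them 13 of Emcn and 21 of Plvap, next to 4 of Cd3e and 12 of Ptprc. The cells that followed held 17, 10 and 9 Ly6a UMIs. All 4 had Cd4 UMIs and none of Cd8a or Cd8b1, so the cell with most Ly6a among those with Cd8 UMIs held 8. Over the cluster, the 12 endothelial genes went from 52.2 CPM, with 4 genes detected and the defining genes Cdh5, Emcn, Plvap and Tie1 at 0, to 614 CPM with all 12 detected. Tubule genes went from 128 to 1825 CPM and were present in 32.0% of the WT cells and 100% of the Vsir-/- cells, and the part of either list in the Ly6a level was not tested. T cell genes were at 5368 and 4734 CPM, with a T cell transcript in 100% of cells in both libraries.

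The Ly6a ratio was also taken within groups of cells split by the lineage transcripts. Cells that held UMIs of Cd8a or Cd8b1 but none of Cd4 numbered 102 in WT and 15 in Vsir-/-. Their Ly6a was at 88.1 and 235 CPM, a log2 ratio of 1.41 (0.57 to 2.22). Cells with Cd4 and no Cd8 UMIs numbered 3 in WT (430 CPM, 10 UMIs) and 6 in Vsir-/- (1390 CPM), and those 6 cells held 68 of the 95 UMIs. Their log2 ratio was 1.69 (0.73 to 2.82). The remaining cells, with neither or both kinds of UMI, numbered 92 in WT (32.9 CPM, 11 UMIs) and 7 in Vsir-/- (219 CPM, 7 UMIs), with a log2 ratio of 2.74 (1.13 to 4.23). Within each library Ly6a was higher in the Cd4 cells than in the Cd8 cells, by a log2 ratio of 2.29 (1.13 to 3.31) in WT and 2.57 (1.83 to 3.36) in Vsir-/-. These values rest on few cells. In WT 1 cell held 7 of the 10 UMIs of the Cd4 cells. In Vsir-/- the cell with the 78 endothelial UMIs held 28 of the 68. Endothelial genes were at 1676 CPM in the Vsir-/- Cd4 cells and 223 in the Cd8 cells, and their part in the difference was not tested. Ly6c2 went the other way in this split. It was at 1241 and 1150 CPM in the Cd8 cells of the 2 libraries, a log2 ratio of −0.11 (−0.43 to 0.20), and at 688 and 266 in the Cd4 cells. In the cells with neither or both it was at 1953 and 564 CPM, a log2 ratio of −1.79 (−2.56 to −1.12). Ly6e in the Cd8 cells was at 249 and 376 CPM, with an interval of the log2 ratio from −0.02 to 1.17.

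In the same split of EM-like CD4+ T cells, Ly6a was higher in Cd4 than in Cd8 cells in WT, by a log2 ratio of 1.39 (1.20 to 1.59), but not beyond counting error in Vsir-/-, at 0.19 (−0.04 to 0.42). Ly6a in cells with Cd4 and no Cd8 UMIs was at 1222 CPM in 92 WT cells and 946 in 76 Vsir-/- cells, a log2 ratio of −0.37 (−0.54 to −0.20). In cells with Cd8 and no Cd4 UMIs it was at 467 CPM in 93 WT cells and 831 in 40 Vsir-/- cells, a log2 ratio of 0.83 (0.58 to 1.08). The positive ratio of the whole cluster (0.51) was thus not shared by its cells with Cd4 and no Cd8 UMIs. The rest of its 489 WT and 244 Vsir-/- cells, with neither or both kinds of UMI, were not counted apart. Ly6c2 was at 1221 and 1314 CPM in those Cd8 cells and at 225 and 86.4 in the Cd4 cells, so it followed Cd8 in both libraries.

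**Figure D3:**
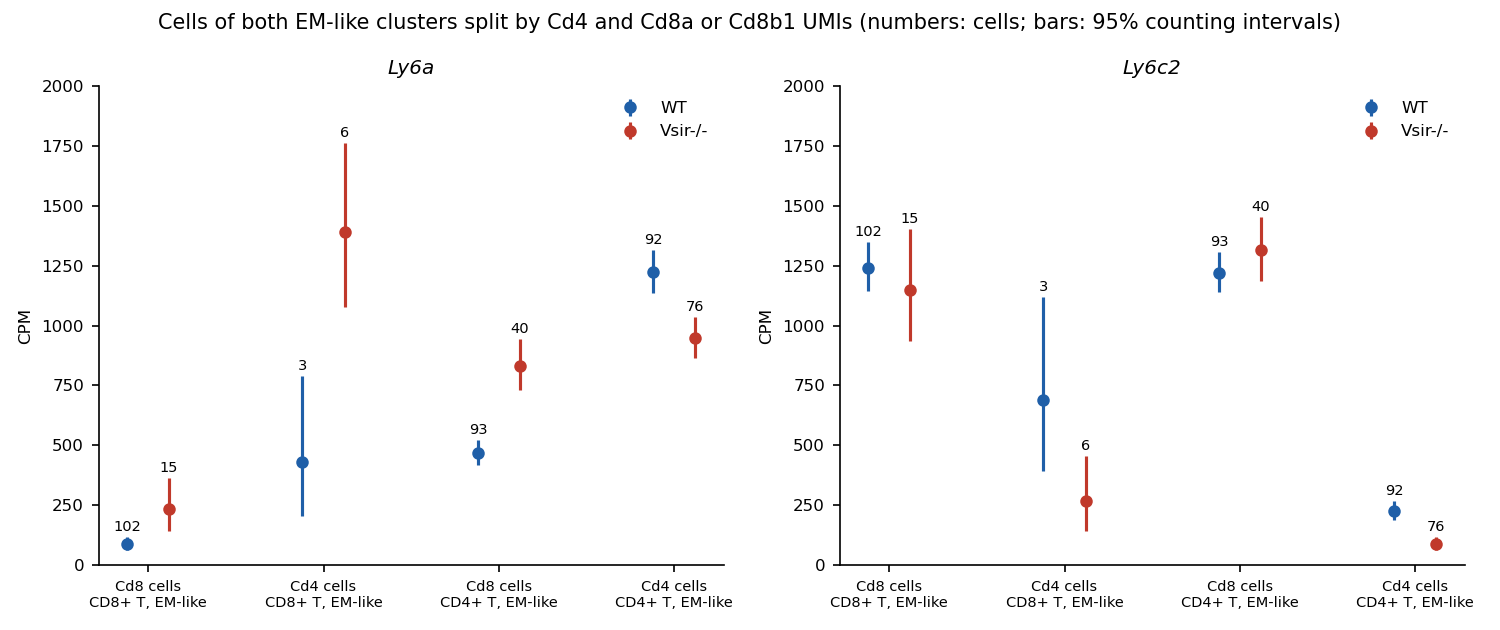
CPM of Ly6a and Ly6c2 (y axis) in cells with Cd8a or Cd8b1 but no Cd4 UMI and in cells with Cd4 but no Cd8 UMI (x axis), for either EM-like cluster of each library, with bars for the 95% Poisson interval and the number of cells above each. Ly6a is higher in Cd4 cells of the EM-like CD8+ cluster (430 and 1390 CPM, from 3 and 6 cells) than in its Cd8 cells (88.1 and 235), and Ly6c2 is higher in the Cd8 cells.

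Ly6c1 had little expression among WT immune cells outside non-EM-like CD4+ T cells. That cluster was at 122 CPM (112 to 132), with a UMI in 29.4% of cells, and held 542 of the 690 WT UMIs (78.6%). γδ T cells followed at 28.5 CPM and EM-like CD4+ T cells at 16.1, and B cells were at 1.44. In the Vsir-/- library Ly6c1 was higher in all 12 clusters with at least 20 UMIs. Several of them met that minimum only through the Vsir-/- library, so nothing is read from this count. Among these were B cells (5 WT and 126 Vsir-/- UMIs), R1 macrophages (3 and 346) and proliferating cells (5 and 2164). In Vsir-/- B cells 64 of the 126 UMIs lay in 1 cell, and in NK cells 41 of 48. The level went from 2.49 to 487 CPM in proliferating cells (log2 ratio 7.61), from 1.44 to 240 in B cells (7.39), from 4.32 to 216 in R1 macrophages (5.65) and from 122 to 286 in non-EM-like CD4+ T cells (1.23).

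These Vsir-/- levels ran in parallel with endothelial transcripts. Over the 13 Vsir-/- clusters with at least 20 cells, Spearman's rho between Ly6c1 and the summed endothelial genes was 0.90, and over the 16 WT clusters it was −0.04. The clusters of a library share its free RNA and its depth, and this is a description. In WT, 7 of the 12 endothelial genes were below 5 CPM in every cluster, so the WT value could not have shown such a relation. Proliferating cells had the most of both (487 CPM of Ly6c1, 6042 of the endothelial genes) and M2-like R2 macrophages were at the low end (23.3 and 148). Across 29 pools of a cluster and library, the genes with the pattern most like Ly6c1, by Pearson's r of log2 CPM among 8785 genes, were Emcn (0.90), Ptprb (0.90) and Arhgap29 (0.89). Emcn encodes endomucin and Ptprb the endothelial phosphatase VE-PTP, and both are on the endothelial list. Over the same pools the genes most like Ly6a were Dgcr6 (0.71), Rev1 (0.67) and Laptm4b (0.67).

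Of the 12 endothelial genes, 7 were below 5 CPM in every WT cluster with at least 20 cells (Cdh5, Emcn, Egfl7, Plvap, Esam, Tie1 and Ptprb). A UMI of any of these core genes was found in 8 of 5470 WT cells (0.146%) and in 717 of 1844 Vsir-/- cells (38.9%). Those 717 cells held 56.7% of all Vsir-/- UMIs. They held 97.0% of the Ly6c1 UMIs, 74.8% of the Ly6a UMIs, 62.6% of the Ly6e UMIs, 46.9% of the Ly6d UMIs, 39.0% of the Ly6c2 UMIs and 26.5% of the Ly6g UMIs. In the Vsir-/- library Ly6c1 was at 412 CPM in cells with a core endothelial UMI and 16.7 in cells without, against 21.0 in the whole WT library. Ly6a was at 950 and 418 CPM and Ly6e at 1346 and 1051, whereas Ly6c2 was lower in the cells with such a UMI (219 and 448). A deeper cell is more likely to hold a core endothelial UMI by count alone, so this split also sorts cells by depth.

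**Figure D4:**
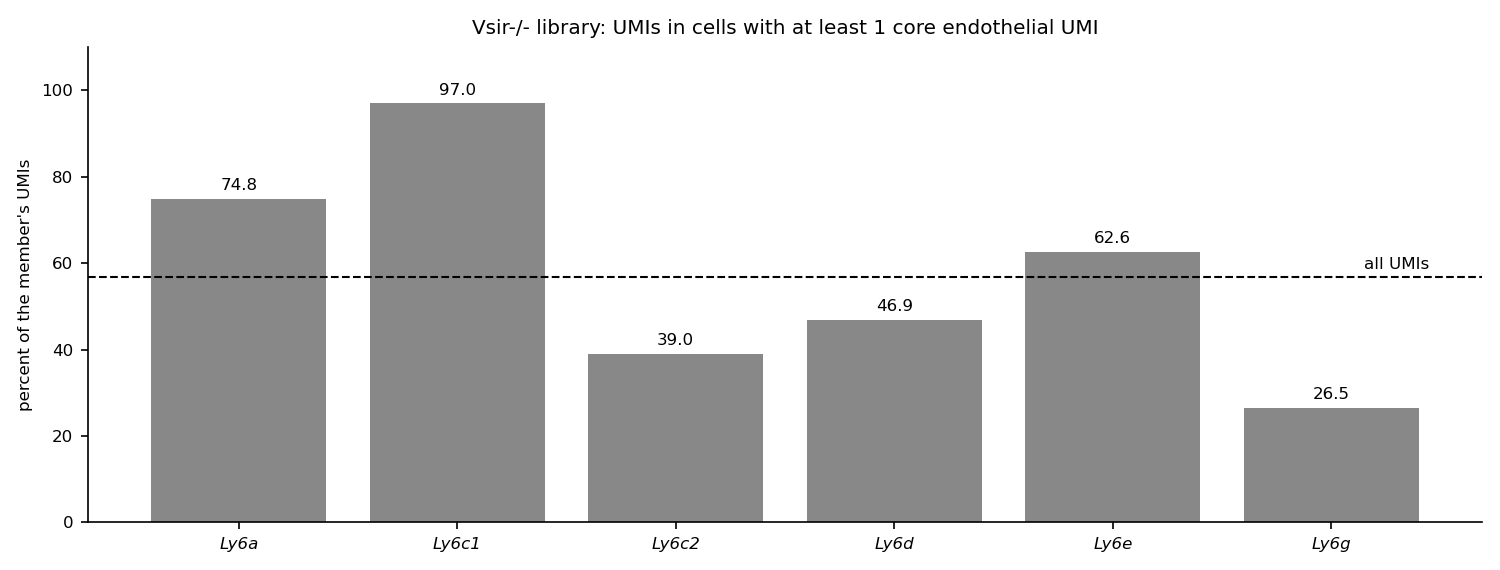
Share of each member's UMIs (percent, y axis) of the Vsir-/- library that lay in cells with a UMI of a core endothelial gene, with a dashed line at the share of all UMIs in those cells (56.7%). Ly6c1 (97.0%) and Ly6a (74.8%) lie above that line and Ly6c2 (39.0%) and Ly6g (26.5%) below it.

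With these cells left out, some ratios had another direction and others were nearer to 0. Of the 5 clusters in which Ly6c1 still had at least 20 UMIs, 2 had an interval above 0, 1 below 0 and 2 across 0. Ly6c1 in non-EM-like CD4+ T cells was at 122 CPM in WT and 24.5 in Vsir-/-, a log2 ratio of −2.31 (−2.86 to −1.80). R1 macrophages (log2 ratio 2.26, interval 0.50 to 4.66) and EM-like CD4+ T cells (0.81, 0.08 to 1.51) stayed above 0. NK cells, with 32 WT UMIs and 1 Vsir-/- UMI, were at −1.32 with an interval from −6.67 to 1.26. Neutrophils (log2 ratio 2.27, interval 0.66 to 3.88) and other R2 macrophages (2.92, 1.16 to 5.02), each with fewer than 20 UMIs left, were also above 0. Ly6a turned from higher to lower in Vsir-/- B cells (log2 ratio −0.42). In pDCs (−0.63) and other R2 macrophages (−0.48), whose intervals included 0 with all cells, it was lower. In neutrophils (−0.32) and proliferating cells (0.13) its interval included 0. The negative ratios of Ly6a in γδ T cells (−1.51) and ILC2 (−1.28) remained, as did positive ones in EM-like CD8+ T cells (2.29, interval 1.68 to 2.90) and R1 macrophages (0.56). The value in EM-like CD8+ T cells rests on 39 UMIs in 18 Vsir-/- cells. Of these UMIs, 10 and 9 lay in single cells with Cd4 and no Cd8 UMIs. Without cells that held a core endothelial UMI, the intervals of Ly6a over the 13 clusters other than EM-like CD8+ T cells lay above 0 in 5, below 0 in 5 and across 0 in 3. The shares of all genes with such intervals were not counted for this set of cells, so nothing is read from these counts.

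The cells that lacked T cell transcripts gave the same picture within 2 clusters. Of the Vsir-/- proliferating cells without a T cell transcript, the 57 with at least 3 endothelial genes had Ly6a at 1581 CPM and Ly6c1 at 708. The 29 with no endothelial gene had Ly6a at 265 CPM and Ly6c1 at 2.45. In non-EM-like CD4+ T cells the corresponding groups of 73 and 83 cells had Ly6a at 995 and 561 CPM and Ly6c1 at 552 and 13.5. Both genes were thus higher beside endothelial transcripts, with the wider gap for Ly6c1. Ly6e was higher there as well, at 1815 and 83.4 CPM in the proliferating cells and 1241 and 539 in the non-EM-like CD4+ cluster. Vsir-/- cells with a T cell transcript also held endothelial transcripts, at 5012 CPM in proliferating cells and 4501 in the non-EM-like CD4+ cluster. Their Ly6a was at 1011 and 884 CPM, and that of all cells without such a transcript at 1191 and 678.

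**Figure D5:**
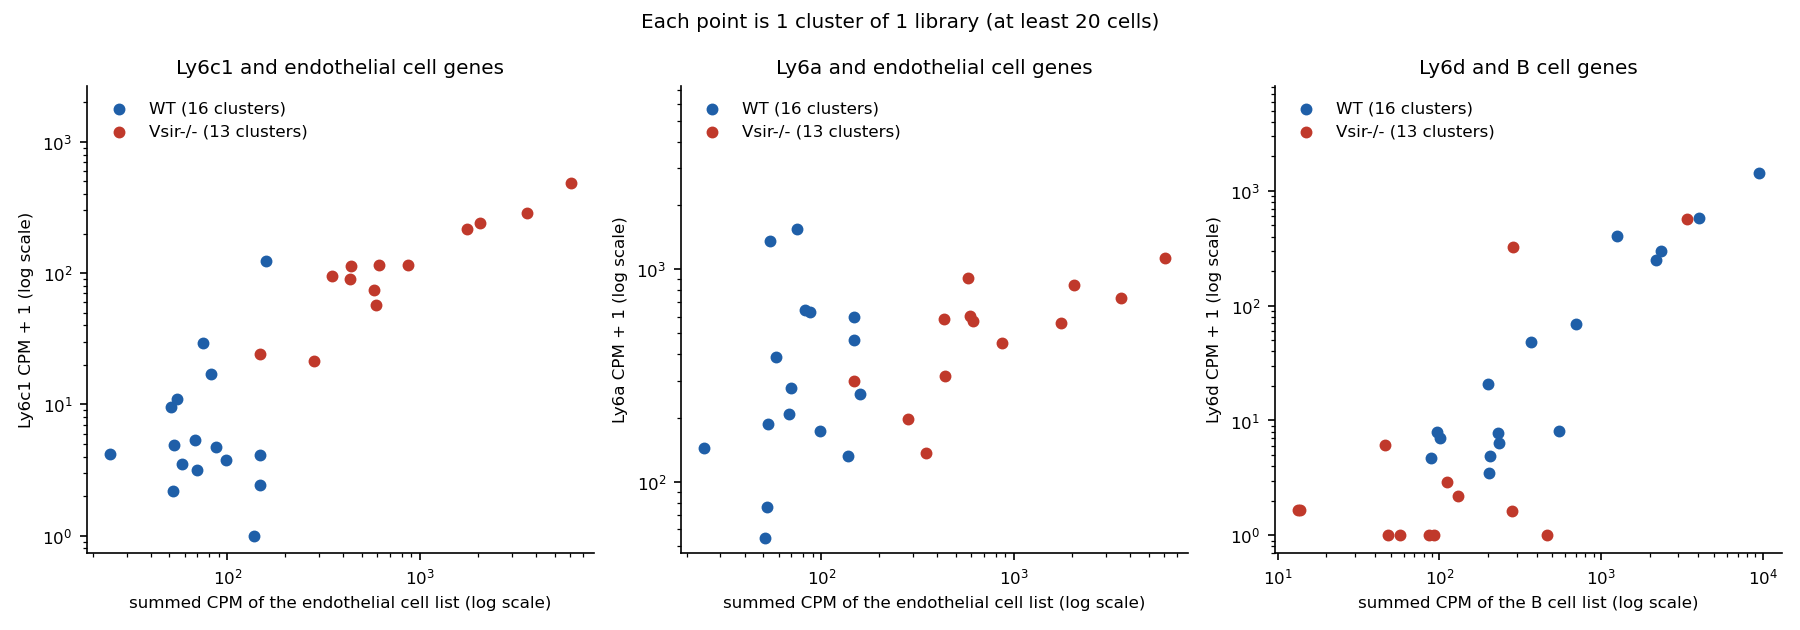
Level of a member (y axis, CPM + 1) against the summed CPM of a marker list (x axis), 1 point per cluster and library with at least 20 cells, WT in blue and Vsir-/- in red, both axes on a log scale. Ly6c1 and the endothelial genes rise together over the Vsir-/- clusters (rho 0.90), and Ly6d and the B cell genes do so over the WT clusters (rho 0.84). Over the WT clusters rho of Ly6c1 was −0.04, but most endothelial genes were at or near 0 there, so a relation could not have been seen.

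Ly6c2 was led by M2-like R2 macrophages, which held 49.4% of its UMIs in WT and 47.4% in Vsir-/-. Their level was 2972 CPM in WT (2921 to 3023) and 1673 in Vsir-/- (1612 to 1736), a log2 ratio of −0.83, and a UMI was found in 88.6% and 72.6% of cells. EM-like CD8+ T cells (1515), pDCs (918) and non-EM-like CD8+ T cells (797) followed in WT. The lowest levels were in ILC2 (17.3 and 0 CPM), non-EM-like CD4+ T cells (12.1 in WT, 12.2 in Vsir-/-) and γδ T cells (7.13 and 0). A Ly6c2 UMI was found in 7.12% of WT and 5.68% of Vsir-/- B cells, which gives the share in a cluster with little of the gene at medians of 3426 and 3596.5 UMIs per cell.

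Ly6c2 was lower in the Vsir-/- library in 9 of 12 clusters by its counting interval, higher in 1 and across 0 in 2. Without cells that held a core endothelial UMI it was lower in 8, higher in 1 and across 0 in 3, with no share of all genes counted for those cells. The widest gap was in proliferating cells (566 and 87.3 CPM, log2 ratio −2.70), followed by R1 macrophages (157 and 30.0, −2.39), other R2 macrophages (220 and 91.9, −1.26), pDCs (918 and 387, −1.25) and NK cells (608 and 300, −1.02). EM-like CD4+ T cells (714 and 642, −0.15) and the non-EM-like CD8+ cluster (797 and 613, −0.38) differed less, and neutrophils (652 and 622, −0.07) had an interval that includes 0. B cells were the exception at 31.3 and 87.7 CPM (log2 ratio 1.49), but 29 of the 46 Vsir-/- UMIs lay in 1 cell. In R1 and other R2 macrophages the lower level was not seen among cells without Cd79a or Cd79b UMIs, where the log2 ratios were 0.93 (−0.32 to 2.46) and 0.05 (−0.47 to 0.59). The genes with the most similar pattern over the 29 pools were Hpcal1 (r = 0.68), Apobr (0.67) and Epsti1 (0.66). Despite its near-identical coding sequence, Ly6c1 had an r of −0.41 with Ly6c2, and Ly6a one of −0.53. The 29 pools come from both libraries, whose levels of these genes differed, and r within a library was not taken.

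Ly6d, the B lineage member, was at 1423 CPM in WT B cells (1384 to 1463), with a UMI in 90.2% of cells and 77.1% of the WT UMIs. In Vsir-/- B cells it was at 572 CPM (509 to 640) with a UMI in 43.2% of cells, a log2 ratio of −1.32. The summed B cell genes were at 9461 and 3418 CPM in that cluster, with a B cell transcript in 100% and 59.1% of cells. Among cells of that cluster without a core endothelial UMI, Ly6d was at 1423 and 900 CPM (log2 ratio −0.66). pDCs were at 404 CPM in 21 WT cells and 325 in 86 Vsir-/- cells, with a log2 ratio of −0.32 and an interval from −0.63 to 0.01. A Ly6d UMI was found in 47.6% of the WT (25.7% to 70.2%) and 17.4% of the Vsir-/- pDCs (10.1% to 27.1%), and these intervals overlap. After thinning the shares were 23.8% (8.22% to 47.2%) and 14.0% (7.42% to 23.1%). In the Vsir-/- library pDCs held 54.9% of the Ly6d UMIs, 82 of them in 1 cell. Genes of the pDC list were found in 100% of the pDCs of both libraries (2788 and 2879 CPM), which does not show that each of these cells is a pDC.

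Outside B cells and pDCs, WT Ly6d was found mostly in cells with Cd79a or Cd79b UMIs. In other R2 macrophages it was at 577 CPM in cells with such a UMI and 3.25 in cells without, in R1 macrophages at 428 and 3.44, in neutrophils at 293 and 2.86, in M2-like R2 macrophages at 160 and 6.42, and in NKT cells at 597 and 98.0. WT pDCs were at 336 CPM in 12 cells with such a UMI (251 to 440) and 501 in 9 cells without (378 to 652), and these intervals overlap. The 55 UMIs of the latter lay in 2 cells. A Ly6d UMI was found in 66.7% of the former and 22.2% of the latter. Vsir-/- pDCs were at 1199 and 177 CPM. Cells with a Cd79a or Cd79b UMI made up 45.7% of WT and 27.8% of Vsir-/- R1 macrophages, and 31.4% and 3.82% of other R2 macrophages. The Ly6d level of these clusters went from 301 CPM to 0 in other R2 macrophages, at least 77.6-fold lower in Vsir-/- when a count of 0 is taken as 3 UMIs, and from 250 to 0.625 in R1 macrophages and 67.6 to 1.19 in M2-like R2 macrophages. The part of B cell transcripts in these differences was not tested. Across WT clusters Spearman's rho of Ly6d with the summed B cell genes was 0.84, and across Vsir-/- clusters 0.24. The most similar genes over 29 pools were Iglc3 (r = 0.98), an immunoglobulin light chain constant gene, Fcrla (0.98) and Siglecg (0.97), which B cells express.

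Ly6e was detected in every cluster. In WT its highest levels were in M2-like R2 macrophages (2482 CPM), other R2 macrophages (2276) and B cells (2113), and its lowest in NK cells (340) and EM-like CD8+ T cells (259). By counting intervals it was lower in the Vsir-/- library in 8 of 14 clusters, higher in 4 and across 0 in 2. The lower levels included neutrophils (944 and 515 CPM, log2 ratio −0.88), B cells (2113 and 1256, −0.75), M2-like R2 macrophages (2482 and 1864, −0.41), other R2 macrophages (2276 and 1962, −0.21) and non-EM-like CD8+ T cells (615 and 473, −0.38). The higher levels were in proliferating cells (874 and 1396, 0.67), EM-like CD8+ T cells (259 and 385, 0.58), NK cells (340 and 483, 0.51) and non-EM-like CD4+ T cells (681 and 869, 0.35). R1 macrophages (1492 and 1423) and EM-like CD4+ T cells (1262 and 1216) had intervals that include 0. Without cells that held a core endothelial UMI, Ly6e was lower in 12 clusters and higher in none, with 2 across 0. The shares of all genes with such intervals were not counted for those cells, so nothing is read from this count. EM-like CD8+ T cells were 1 of those 2, at a log2 ratio of 0.48 (−0.06 to 0.98). The genes with the most similar pattern were Klf4 (r = 0.83), Fndc3a (0.81) and Rnf41 (0.80).

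Ly6g was the member most concentrated in its leading cluster, neutrophils, with 853 of 892 UMIs there in WT (95.6%) and 372 of 374 in Vsir-/- (99.5%). Its level was 344 CPM in WT (321 to 368) and 479 in Vsir-/- (431 to 530), a log2 ratio of 0.48 (0.30 to 0.66). A UMI was found in 37.8% of 524 WT neutrophils and 54.4% of 158 Vsir-/- neutrophils, or 17.9% and 28.1% after thinning. No UMI was found in B, NK, γδ T, ILC2, R1, EM-like CD8+ or EM-like CD4+ cells of either library. For WT B cells, 0 of 969 cells allows a share of cells with a Ly6g UMI of up to 0.310%, taken at 3 counts, which does not limit the share of cells that express the gene. Neutrophil marker genes were found in 100% of cells of that cluster in both libraries (264661 and 291786 CPM). The genes with the most similar pattern were Il1f9 (r = 0.98), Mrgpra2b (0.98) and Chil1 (0.97).

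Members past a log2 ratio of 1 in either direction were also counted in the other clusters. In R1 macrophages 2 of 5 members with at least 20 UMIs were past 1 (Ly6a and Ly6c1) and 2 past −1 (Ly6c2 and Ly6d), where 13.6% and 8.78% of all genes with as many UMIs were. In proliferating cells the same 2 and 2 of 5 were past these limits, against 37.5% and 9.0% of genes, and in non-EM-like CD4+ T cells 2 were past 1 (Ly6a and Ly6c1) and 1 past −1 (Ly6d), against 47.8% and 10.7%. The median log2 ratio of all genes was 0.51 in proliferating cells and 0.91 in non-EM-like CD4+ T cells, so the Ly6a ratios there (1.56 and 1.50) lie beside a general shift. In γδ T cells 1 of 2 members was past −1 (6.60% of genes), and in ILC2 1 of 2 (12.3%), Ly6a in each, and none was past 1 (5.98% and 11.4% of genes). In B cells 2 of 5 were past 1 (Ly6c1 and Ly6c2, 16.3% of genes) and 1 past −1 (Ly6d, 15.9%), in neutrophils 2 of 6 were past 1 (Ly6a and Ly6c1, 9.99%) and 1 past −1 (Ly6d, 10.6%), and in NK cells 2 of 4 were past 1 (Ly6a and Ly6c1, 9.86%) and 1 past −1 (Ly6c2, 7.01%). Ly6c1 alone was past 1 in EM-like CD4+ T cells (10.4% of genes), non-EM-like CD8+ T cells (11.1%), M2-like R2 macrophages (8.11%), other R2 macrophages (6.71%) and pDCs (11.9%), of 5 members each. Past −1 were Ly6d in EM-like CD4+ T cells (5.41%), M2-like R2 macrophages (7.61%) and the non-EM-like CD8+ cluster (9.66%), Ly6c2 and Ly6d in other R2 macrophages (9.52%), and Ly6c2 in pDCs (10.1%). Ly6c1 met the minimum only through the Vsir-/- library in several clusters, such as R1 macrophages (3 WT and 346 Vsir-/- UMIs) and proliferating cells (5 and 2164). Ly6d met it only through the WT library in others, such as R1 (174 and 1) and other R2 macrophages (386 and 0). A ratio past the limit was thereby largely fixed for them, so nothing is read from these counts of members. Some of the ratios also rest on few UMIs. Ly6d had 20 WT and 0 Vsir-/- UMIs in the non-EM-like CD8+ cluster, where the value depends on the pseudocount. In EM-like CD4+ T cells it had 19 and 3, and −0.04 (−2.72 to 2.32) without cells that held a Cd79a or Cd79b UMI.

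The wider Ly6 and uPAR family was sparse in EM-like CD8+ T cells. Of 37 other genes of the family listed, 22 were in the matrix and none had 20 UMIs in EM-like CD8+ T cells. Gpihbp1, which carries lipoprotein lipase to the surface of capillary endothelium, had 0 UMIs in the WT library and 1584 in the Vsir-/- library, of which 8 lay in EM-like CD8+ T cells, 436 in the non-EM-like CD4+ cluster and 1011 in proliferating cells. In non-EM-like CD4+ T cells 10 of 12 such genes with at least 20 UMIs were past a log2 ratio of 1 and 1 past −1, where 47.8% and 10.7% of all genes were, with a median of 6.47 beside 0.91 for all genes. Genes without WT UMIs, such as Gpihbp1 and Lypd2 (0 and 792 UMIs over the libraries), could reach 20 UMIs only through the Vsir-/- library. A high ratio was thereby fixed for them, so nothing is read from this count or its median. Ly6i, a near relative of the Ly6C genes, was at 347 and 739 CPM in other R2 macrophages (log2 ratio 1.09) and at 93.8 and 97.9 in M2-like R2 macrophages. Plaur, the urokinase receptor gene, was at 445 and 390 CPM in neutrophils and 245 and 193 in M2-like R2 macrophages.

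Genes of the route that puts these proteins on the surface, and genes that respond to interferons, were counted in EM-like CD8+ T cells beside all genes, of which 6.03% were past a log2 ratio of 1 and 9.98% past −1. No test of either list was run. Of 27 genes for assembly of the GPI anchor, 11 had at least 20 UMIs, and 1 was past a log2 ratio of 1 and 1 past −1, with a median of −0.13 beside −0.02 for all genes. Of 40 interferon-responsive genes, 30 had at least 20 UMIs, and 1 was past 1 and 2 past −1, with a median of 0.02. Among the most abundant of them, B2m, the light chain of MHC class I, was at 2965 and 3114 CPM (log2 ratio 0.07), Ifi27l2a at 803 and 1018 (0.34) and Ifi47 at 230 and 151 (−0.61). In B cells 13 of 38 interferon-responsive genes were past 1 and 3 past −1 (16.3% and 15.9% of all genes), with a median of 0.76 beside −0.04. In neutrophils 1 of 35 was past 1 and 12 past −1 (9.99% and 10.6% of all genes), with a median of −0.67 beside −0.06. Counts in other clusters have to be read beside the shares of all genes there. In proliferating cells 17 of 40 were past 1, where 37.5% of all genes were, and 2 past −1 (median 0.73 beside 0.51). In non-EM-like CD4+ T cells 13 of 39 were past 1 and 3 past −1 (47.8% and 10.7% of all genes, median 0.29 beside 0.91). In pDCs 2 of 35 were past 1 and 14 past −1 (11.9% and 10.1% of all genes, median −0.73 beside −0.07). With all cells, Ly6a was higher in the Vsir-/- library in B cells and in neutrophils. Without the cells that held a core endothelial UMI it was lower in B cells (595 and 444 CPM, log2 ratio −0.42, interval −0.70 to −0.15) and its interval in neutrophils included 0. The interferon-responsive genes were counted with all cells only, so they cannot be set beside those values, and a link of Ly6a with them was not tested.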

How the data were processed

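Kidney cells were profiled with the 10x Genomics 3′ kit (version 3.1) in 1 WT and 1 Vsir-/- library. The submitters' processing notes name Cell Ranger 3.1.0, R 4.0.3, Seurat 3.2.3 and the mm9 build. The authors filtered, merged, clustered and named the cells, and the deposited values are raw counts of UMIs per gene and cell. In the deposited table of cells, the percent of mitochondrial UMIs reached 10.0 and the lowest UMI count of a cell was 501. Removal of doublets is not given in the sources used here and no caller was run. A table with 2 columns of positions was not used.

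For each cluster and library the UMIs of a gene were added up and divided by all UMIs of the same cells, which gives CPM, with exact Poisson, Clopper-Pearson and conditional intervals at 95% (Python 3.11.15, numpy 2.4.6, scipy 1.17.1, pandas 2.3.3). Ratios needed 10 cells per library and a gene 20 UMIs in the cluster. Counts over all genes used a pseudocount of 0.5 UMIs. With 1 library per genotype no test was possible. Cells were thinned to 1000 UMIs without replacement. Likeness was Pearson's r of log2(CPM + 5) over pools of at least 20 cells, for genes with at least 500 UMIs. Coding sequences were aligned with Biopython 1.88. The reference sequences are of GRCm38, and the count files carry no coordinates. The scripts were tested on simulated data.

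The members and lists were chosen with earlier results of these data known. The text names the 6 members and the 3 genes most like each. From the fixed lists other than that of the GPI anchor it names some of the most abundant genes in the matrix or cluster. Single cells of the EM-like CD8+ cluster, the core endothelial genes and the split by Cd79a and Cd79b were chosen after the data were seen, as were the alternatives without cells that hold their UMIs.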

Additional observations from a re-analysis of the deposited data

Results flagged for a closer look

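Ly6a, Ly6c2 and Ly6e each had counting intervals on opposite sides of 0 in different clusters. Ly6a had a log2 ratio of Vsir-/- over WT of 2.93 in EM-like CD8+ T cells and −1.35 in γδ T cells. Ly6c2 had one of 1.49 in B cells, where 1 cell held 29 of 46 Vsir-/- UMIs, and −2.70 in proliferating cells. Ly6e had one of 0.67 in proliferating cells and −0.88 in neutrophils. With 1 library per genotype, the differences between clusters were not tested. The Ly6a value in EM-like CD8+ T cells is the one by which the gene was chosen.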

How the results depend on the processing

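Across 64 results and 499 values under other settings, 352 moved by less than their interval, 134 moved further and 13 changed direction. The Ly6a log2 ratio in EM-like CD8+ T cells (2.93) was 2.08 with cells thinned to 1000 UMIs and 1.41 in cells with Cd8 and no Cd4 UMIs. It was 2.29 without cells that held a core endothelial UMI, which left 18 Vsir-/- cells. The Ly6c2 ratio there (−0.96) was −0.11 in the cells with Cd8 UMIs. The share of genes past a log2 ratio of 1 in that cluster was 6.03% with at least 20 UMIs, 1.66% with at least 100 and 22.7% with at least 1, and that past −1 was 9.98% and 4.97% with at least 20 and 100. Without cells that held a core endothelial UMI, the direction changed for Ly6a in B cells (−0.42) and neutrophils (−0.32), Ly6c1 in the non-EM-like CD4+ cluster (−2.31) and NK cells (−1.32, from 1 Vsir-/- UMI, with an interval that includes 0), and Ly6e in non-EM-like CD4+ T cells (−0.30), NK cells (−0.20) and proliferating cells (−0.38). Thinning gave −0.18 for Ly6a in B cells and −0.20 for Ly6e in NK cells. Without cells that held a Cd79a or Cd79b UMI, Ly6c2 was at 0.05 in other R2 and 0.93 in R1 macrophages, and Ly6d at 0.91 in neutrophils. A denominator without mitochondrial and ribosomal protein genes gave −0.24 for Ly6e in non-EM-like CD4+ T cells. The cause was not tested in any of these. No paired analysis was possible because each genotype has 1 library, so no replicate could be left out either. Depth limits the EM-like CD8+ values, since the Vsir-/- cluster rests on 28 cells and 166037 UMIs.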
